A study of Mus musculus with 11 samples.

Results

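The 37 genes described here make sterols and fatty acids, switch their synthesis on or off, or move sterol out of the cell or between membranes. They were chosen by name, from a list of known pathway genes, with earlier results of these data known. All 37 are among the 34570 genes listed in the mESC or the MEF table. They comprise 18 enzymes of sterol synthesis (Acat2, Hmgcs1, Mvk, Pmvk, Mvd, Idi1, Fdps, Fdft1, Sqle, Lss, Cyp51, Tm7sf2, Msmo1, Nsdhl, Hsd17b7, Ebp, Sc5d and Dhcr7), 5 regulators (Srebf1, Srebf2, Scap, Insig1 and Insig2), 11 enzymes of fatty acid synthesis (Acly, Acaca, Acacb, Fasn, Scd1, Scd2, Elovl1, Elovl5, Elovl6, Fads1 and Fads2) and 3 genes of sterol transport (Stard4, Abca1 and Abcg1). Atxn7l3 encodes the adaptor subunit of the deubiquitylation module of SAGA, a coactivator complex, and the comparison asks how loss of the adaptor changes RNA levels.

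Cells build sterols from acetyl-CoA through mevalonate and squalene, and fatty acids from the same acetyl-CoA through malonyl-CoA. SREBP proteins, the products of Srebf1 and Srebf2, are membrane-bound transcription factors that Scap carries out of the endoplasmic reticulum when sterol is scarce and that Insig proteins hold back when it is plentiful, so that the target genes usually rise and fall together. Srebf2 acts mainly on sterol genes and Srebf1 mainly on fatty acid genes, and proliferating cells such as stem cells and fibroblasts need both products for new membranes.

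RNA-seq was made from mouse embryonic stem cells (mESCs), pluripotent cells derived from blastocysts, and from mouse embryonic fibroblasts (MEFs), primary cells cultured from E10.5 embryos, all of DBA/2 x C57BL/6 background. The groups were 2 Atxn7l3+/+ (WT) and 3 Atxn7l3-/- mESC libraries, and 3 Atxn7l3+/+ and 3 Atxn7l3-/- MEF libraries. All mESCs were grown without feeders in 15% foetal calf serum with LIF and the inhibitors PD0325901 (1 uM) and CH99021 (3 uM), whereas all MEFs were grown in DMEM with 10% foetal calf serum. The null allele came through the germ line from crosses of heterozygotes, each mESC line or MEF culture came from its own embryo according to the study's methods, and MEFs were made from embryos without head and gastrointestinal tract, so that a culture can hold several cell types.

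Library totals ranged from 34515342 to 49602605 counts, and levels are given as counts of a gene per 1000000 counts of the library (CPM) on 1 TMM scale over the 11 libraries. Atxn7l3 itself stood at 199 ± 4.20 CPM in WT mESCs (SD, n = 2) and 1.92 ± 1.28 CPM in Atxn7l3-/- mESCs (n = 3). In MEFs it stood at 102 ± 15.2 CPM in WT and 61.6 ± 10.0 CPM in Atxn7l3-/- (n = 3 each), a log2 fold change of -0.74 ± 0.21 (SE) with an edgeR adjusted p of 0.0715. The MEF libraries labelled Atxn7l3-/- (55.3 to 73.2 CPM) lay below the WT ones (86.4 to 117 CPM) but kept most of the RNA. The RNA taken alone goes against a null label, and the change differed between the cell types (interaction 5.97 ± 0.58, adjusted p 0.000664). By other measures, the study could not detect ATXN7L3 protein in its Atxn7l3-/- MEFs and reported raised histone H2B ubiquitylation in them. It genotyped the embryos from yolk sacs. Whether the sequenced cultures were those assayed for protein is not given. The genotype of these libraries is therefore given as labelled, and every direction drawn from them rests on that label. The stem cell markers summed to at least 3761 CPM in every mESC library and at most 89.0 CPM in every MEF library, and the fibroblast markers to at least 6512 CPM in every MEF library, each on the scale of its own table. Single markers varied among the MEFs. Pdgfrb stood at 193 to 428 CPM in WT and 1.82 to 255 CPM in those labelled Atxn7l3-/-, and Dcn at 22.6 to 341 against 652 to 2180 CPM. The stem cell marker Tfcp2l1 stood at 0.959 to 1.39 against 25.0 to 65.3 CPM. Of the 8 fibroblast markers 0 were called in MEFs, with 3 log2 fold changes above 0 and 5 below. Libraries were not matched for sex: Y-linked Ddx3y stood at 3.46 and 0.881 CPM in Atxn7l3-/- mESC replicates 1 and 2 against 90.5 to 225 CPM in the other 3 mESC libraries, and at 0.218 CPM in WT MEF replicate 3 against 59.2 to 240 CPM in the other 5 MEF libraries. In bulk RNA, fewer cells of a type and less RNA per cell cannot be told apart.

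The promoters of 6 members are shown, since sterol genes moved together between libraries. The first 3 are those of Hmgcs1, Msmo1 and Srebf2, the members with a match to 1 form of the sterol regulatory element, among the 29 members with an entry. The others are that of Insig1, which had the largest log2 fold change of the regulators in mESCs, and those of Srebf1 and Elovl6, which differed between genotypes below. Each is the 250 bases before the RefSeq start on GRCm38.p6, read 5′ to 3′ on the strand of the gene, and capitals mark matches on either strand to the letters TCACNCCA (a form of the sterol regulatory element that SREBP binds), CACGTG (an E-box) or CCAAT. They lie at chr13:119690101-119690350 (plus strand), chr8:64733579-64733828 (minus), chr15:82147019-82147268 (plus), chr5:28071162-28071411 (plus), chr11:60222582-60222831 (minus, the first of 3 listed starts) and chr3:129532136-129532385 (plus).
Hmgcs1: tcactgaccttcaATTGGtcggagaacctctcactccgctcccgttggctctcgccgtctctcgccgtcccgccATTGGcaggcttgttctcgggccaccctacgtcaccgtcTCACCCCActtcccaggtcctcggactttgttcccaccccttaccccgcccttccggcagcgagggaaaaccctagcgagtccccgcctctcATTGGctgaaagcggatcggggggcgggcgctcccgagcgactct
Msmo1: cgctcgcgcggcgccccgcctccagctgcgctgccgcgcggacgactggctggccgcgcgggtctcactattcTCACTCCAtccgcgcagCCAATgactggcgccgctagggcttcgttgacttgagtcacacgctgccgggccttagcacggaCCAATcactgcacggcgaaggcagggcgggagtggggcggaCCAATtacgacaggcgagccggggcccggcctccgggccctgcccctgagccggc
Srebf2: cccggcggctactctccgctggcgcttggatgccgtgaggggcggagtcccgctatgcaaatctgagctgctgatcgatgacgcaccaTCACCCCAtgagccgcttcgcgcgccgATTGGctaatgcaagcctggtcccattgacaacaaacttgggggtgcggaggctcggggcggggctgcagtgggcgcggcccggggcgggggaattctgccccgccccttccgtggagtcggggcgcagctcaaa
Insig1: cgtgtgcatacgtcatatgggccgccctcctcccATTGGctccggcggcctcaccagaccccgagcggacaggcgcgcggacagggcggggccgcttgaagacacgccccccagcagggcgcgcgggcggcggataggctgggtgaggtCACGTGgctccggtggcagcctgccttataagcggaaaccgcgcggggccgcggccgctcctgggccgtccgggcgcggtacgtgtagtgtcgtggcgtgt
Srebf1: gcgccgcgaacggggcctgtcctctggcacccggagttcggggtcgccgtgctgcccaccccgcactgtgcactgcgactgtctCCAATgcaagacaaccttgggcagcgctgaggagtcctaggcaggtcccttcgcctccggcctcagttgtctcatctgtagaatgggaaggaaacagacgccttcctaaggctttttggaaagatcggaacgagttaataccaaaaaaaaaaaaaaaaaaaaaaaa
Elovl6: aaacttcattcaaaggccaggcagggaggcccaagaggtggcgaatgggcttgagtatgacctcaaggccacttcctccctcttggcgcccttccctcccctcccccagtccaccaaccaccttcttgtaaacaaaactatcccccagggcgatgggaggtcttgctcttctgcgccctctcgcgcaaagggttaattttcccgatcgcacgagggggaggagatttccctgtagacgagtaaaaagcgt
The sterol regulatory element lay 137 bases before the start in Hmgcs1, the synthase that makes HMG-CoA, 177 before it in Msmo1, a methyl sterol oxidase, and 162 before it in Srebf2. Of the 38 promoters listed for 29 members, 3 held TCACNCCA, against 3.67% of all 32851 promoters of that length. CACGTG lay in 7 member promoters, Insig1 and 1 of the 3 of Dhcr7 included, against 6.02% of all, and CCAAT in 23 (14 of the 18 of sterol enzymes), against 33.8% of all. GGGCGG, the GC box bound by Sp1, lay in 27, against 32.7% of all. No match to the capitalised motifs lay in the Elovl6 window, which says only that these letters are not in it. Fdps, Fdft1, Sqle, Scd1, Scd2, Fads1, Stard4 and Abcg1 had no entry.

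Between WT mESCs and WT MEFs, 3 of 18 sterol enzymes, 1 of 5 regulators and 4 of 11 fatty acid enzymes differed. Per kb of the longest annotated transcript, the members with the highest mean level in WT mESCs were Acly (214 CPM per kb), which makes cytosolic acetyl-CoA, Scd2 (85.3), a desaturase, and Fasn (72.4), fatty acid synthase. WT MEFs had most Scd2 (157 CPM per kb), Elovl1 (73.2), an elongase, and Hmgcs1 (70.5), and Idi1 and Abcg1 were under 1 CPM per kb in all 4 groups. Of the 37 members, 5 were higher in WT MEFs than in WT mESCs (26.8% of 19326 genes were) and 3 were lower (27.1%), by the joint fit of the 11 libraries. Higher in MEFs were the fatty acid elongase Elovl1 (log2 difference 2.02 ± 0.29), Insig2 (0.86 ± 0.30) and Sqle (0.86 ± 0.32). Also higher were Hsd17b7 (1.97 ± 0.34) and Sc5d (1.40 ± 0.25), both enzymes of late sterol synthesis. Lower were Acacb (-4.48 ± 0.35), the mitochondrial-membrane acetyl-CoA carboxylase, Elovl6 (-3.18 ± 0.39) and Acly (-1.76 ± 0.33). The cell types also differed in culture medium, from which their difference cannot be told apart.

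**Figure D1:**
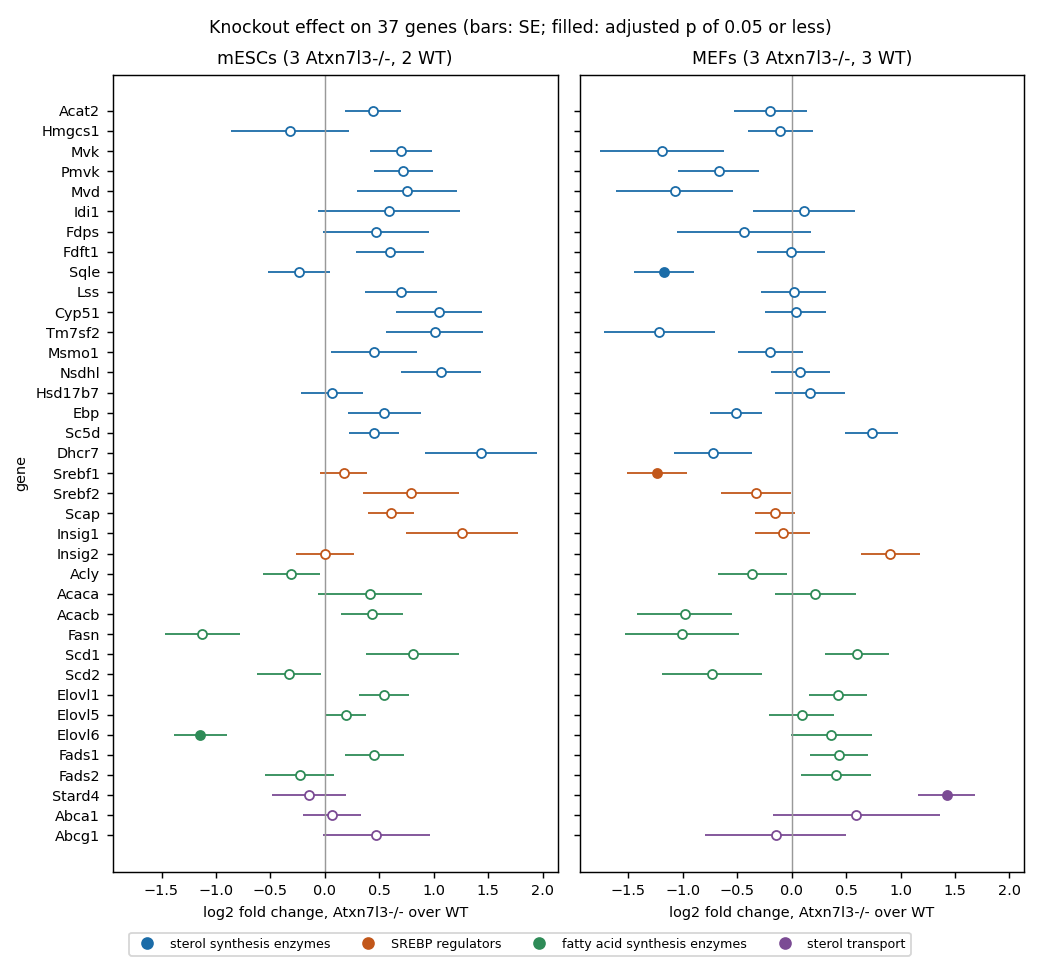
Log2 fold change of Atxn7l3-/- over WT for the 37 members in mESCs (left) and MEFs (right), with standard errors, genotypes as labelled and colours by role. Filled points passed an adjusted p of 0.05, namely Elovl6 in mESCs and Sqle, Srebf1 and Stard4 in MEFs.

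In Atxn7l3-/- mESCs Elovl6, the elongase that lengthens palmitate to stearate, was lower than in WT, and it was the only member of the 37 called. Lower calls were made for 3.88% of 17800 genes and higher calls, of which the members had 0, for 3.08%. At an unadjusted p under 0.05, 8 members were higher and 2 lower, beside 2666 and 2643 of all genes. DESeq2 called 1 member higher, Dhcr7, the last reductase of cholesterol synthesis, where it called 10.0% of all genes higher, and 2 lower, Elovl6 and Fasn, where it called 9.65% lower.

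Elovl6 (ENSMUSG00000041220, chr3:129532355-129638495, mm10) stood at 393 and 458 CPM in the WT mESCs and at 145, 250.3 and 165 CPM in the Atxn7l3-/- mESCs, a log2 fold change of -1.14 ± 0.24 with an adjusted p of 0.0388. All 3 Atxn7l3-/- libraries lay below both WT libraries. The call was made under all 7 other settings of the fit (adjusted p 0.0015 to 0.0484), and was lost on leaving out either WT library or Atxn7l3-/- replicate 1 or 3 (adjusted p 0.0575 to 0.228), with the log2 fold change between -1.38 and -0.996 in every case. Leaving out either WT library left 0 calls among all genes.

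Fasn, which builds palmitate, stood at 499 and 957 CPM in WT and at 406, 348 and 211 CPM in Atxn7l3-/- mESCs, also without overlap, at a log2 fold change of -1.12 ± 0.35 and an adjusted p of 0.0833. It was called by DESeq2 (adjusted p 0.0224) and without the low-count filter (adjusted p 0.00525), and under none of the other 5 settings of the fit. Of the other fatty acid genes, Scd1, the desaturase that makes oleate, had the largest log2 fold change (0.81 ± 0.43, adjusted p 0.245), from 62.2 and 132 CPM in WT and 154, 101 and 232 CPM in Atxn7l3-/-, and its groups overlapped. Over the 11 fatty acid enzymes 6 log2 fold changes were above 0 and 5 below, with a median of 0.19 beside 0.04 over all genes tested.

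The sterol enzymes lay mostly above 0 in mESCs and none was called. Of the 18, 16 had a positive log2 fold change (52.3% of all genes tested did), with a median of 0.59 and a smallest adjusted p of 0.107. Dhcr7 had the largest, 1.44 ± 0.51 (adjusted p 0.116), from 19.2 and 60.4 CPM in WT and 118, 61.8 and 129 CPM in Atxn7l3-/-. The lowest Atxn7l3-/- library of Dhcr7 thus stood just above the higher WT library. Hmgcs1 had the smallest, -0.32 ± 0.54 (adjusted p 0.728), from 173 and 290 CPM in WT and 109, 92.8 and 330.2 CPM in Atxn7l3-/-, with overlapping groups.

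The WT libraries differed in where they lay. WT replicate 1 lay below all 3 Atxn7l3-/- libraries for 16 of the 18 sterol enzymes, and WT replicate 2 for 5 of them. On leaving out WT replicate 1 the log2 fold change of Dhcr7 was 0.83 (adjusted p 0.426), and on leaving out WT replicate 2 it was 2.46 (adjusted p 0.157). Fibroblast markers summed to 29.1 and 109 CPM in the WT mESC libraries and to 316 to 432 CPM in the Atxn7l3-/- ones. Of 7 tested, 1 was called higher, beside 3.08% of all genes. Most of the rise lay in the collagens Col1a1 (10.9 and 52.3 CPM in WT, 165 to 211 CPM in Atxn7l3-/-), Col1a2 (1.57 and 34.0 against 96.7 to 147 CPM) and Col3a1. Twist1 rose less (0.973 and 1.20 against 1.55 to 3.91 CPM). Pdgfra, Pdgfrb and Thy1 overlapped between genotypes, and Dcn was at most 0.405 CPM. Stem cell markers had 5 of 7 log2 fold changes below 0 and no call. The epithelial and mesothelial list had 1 higher call and 0 lower of 8 tested, but 5 log2 fold changes lay below 0 and 3 above. At an unadjusted p under 0.05, 1 was higher and 3 were lower, beside 2666 and 2643 of all genes. Krt8, Krt18 and Krt19 were lower in every Atxn7l3-/- mESC library than in either WT library. Adipocyte and endothelial lists had 1 lower call each, of 3 and 4 tested, beside 3.88% of all genes. The part of such cells in the result was not tested.

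Nsdhl, a sterol dehydrogenase, and Ebp, a sterol isomerase, are X-linked and, among the Atxn7l3-/- mESC libraries, were higher in the 2 with few Y-linked reads. Nsdhl stood at 120.3 and 82.8 CPM in Atxn7l3-/- replicates 1 and 2 and at 55.2 CPM in replicate 3, beside 31.8 and 53.8 CPM in WT. Ebp stood at 88.0 and 70.7 CPM against 42.6 CPM, beside 37.2 and 58.0 CPM in WT. Over the 680 X-linked genes tested the median ratio of replicate 1 to replicate 3 was 1.97, and over 17094 autosomal genes it was 0.988, so the level of both members cannot be told apart from the sex of the lines.

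Among the regulators in mESCs, 4 of 5 had a positive log2 fold change and none was called. Insig1, which retains Scap in the endoplasmic reticulum and is itself an SREBP target, had the largest (1.26 ± 0.52, adjusted p 0.152), from 23.8 and 53.6 CPM in WT and 126, 41.9 and 96.2 CPM in Atxn7l3-/-. The groups of Insig1 overlapped, since Atxn7l3-/- replicate 2 lay below WT replicate 2. Insig2 was nearest to 0, from 36.4 and 23.8 CPM in WT and 30.8, 32.2 and 24.6 CPM in Atxn7l3-/- (adjusted p 0.999). Srebf2 ran from 131 and 260 CPM in WT to 290, 192 and 484 CPM in Atxn7l3-/- (adjusted p 0.269) and Srebf1 from 53.7 and 72.4 CPM to 74.5, 60.6 and 70.2 CPM (adjusted p 0.624). In transport, Abcg1, a sterol exporter, had the largest log2 fold change (0.47 ± 0.49), from 3.71 and 3.18 CPM in WT and 6.64, 2.78 and 4.38 CPM in Atxn7l3-/-, and Stard4, a soluble sterol carrier, the smallest (-0.15 ± 0.34), with all 3 genes overlapping. Counted over the 37 members, the libraries did not overlap for 7 genes higher in Atxn7l3-/- mESCs (24.6% of all genes) and for 2 genes lower (25.1%).

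**Figure D2:**
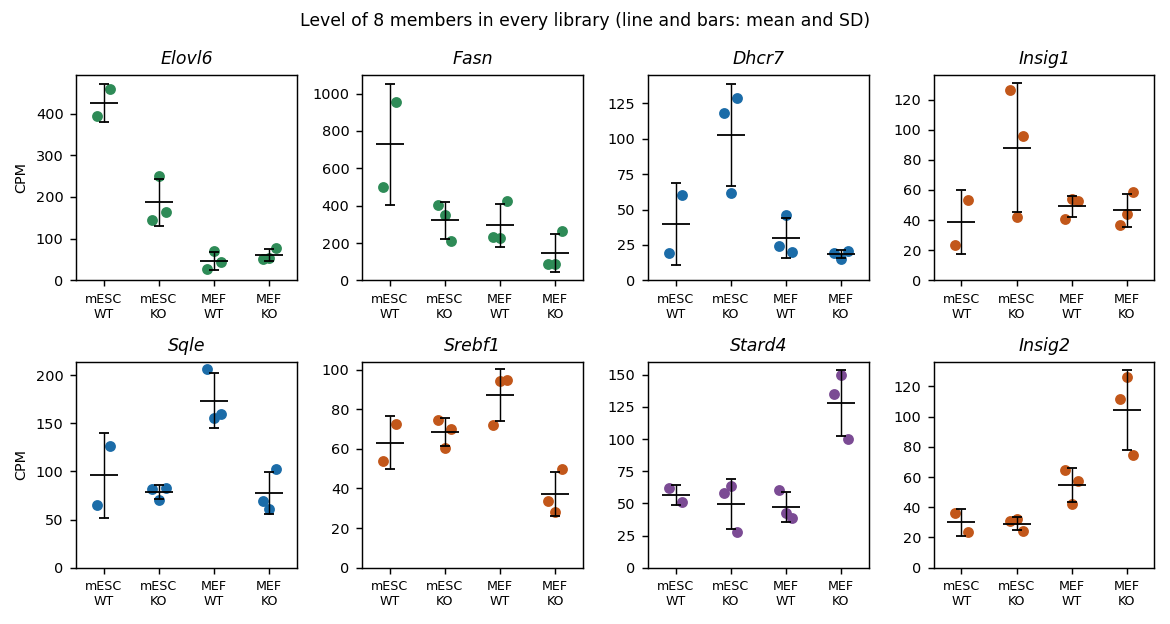
Level in CPM (linear axes from 0) of 8 members in each of the 11 libraries, with group mean and SD. Elovl6, Fasn and Dhcr7 in mESCs, and Sqle, Srebf1, Stard4 and Insig2 in MEFs, show no overlap of WT and Atxn7l3-/- libraries, whereas Insig1 overlaps in both cell types.

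In MEFs labelled Atxn7l3-/- 3 members were called, each of a different role. The lower ones were Srebf1, the SREBP of fatty acid synthesis, and Sqle, squalene epoxidase, a slow step of sterol synthesis, where 4.39% of 15958 genes were called lower. The higher one was Stard4, where 5.01% were called higher. Replicate numbers went with library deviations in MEFs, and with the number as a block the calls were Stard4 higher (5.50% of all genes) and Srebf1, Sqle and also Fasn lower (8.49%).

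Srebf1 (ENSMUSG00000020538, chr11:60199089-60222581, mm10) stood at 71.9, 94.4 and 94.8 CPM in WT MEFs and at 33.7, 28.0 and 49.7 CPM in MEFs labelled Atxn7l3-/-, a log2 fold change of -1.24 ± 0.28 with an adjusted p of 0.0428. All 3 libraries labelled Atxn7l3-/- lay below the lowest WT library. With the trend of each library over GC content taken out, the log2 fold change was -0.41 (adjusted p 0.107): the gene has 59.8% GC against a median of 50.5% over genes tested, and over 15944 genes the MEF fold changes ran against GC content (Spearman's rho -0.393, a description across genes of the same libraries). Counts per gene do not separate the products of its several starts. Among other members, reads may be shared with near copies or overlapping genes, since 52.6% of the 50-base windows of the longest transcript of Acaca, 45.9% of Acat2, 30.7% of Fdft1 and 30.5% of Idi1 also occur in transcripts of other genes.

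Sqle (ENSMUSG00000022351, chr15:59315077-59331192, mm10) stood at 206, 155 and 159 CPM in WT MEFs and at 69.2, 61.0 and 102 CPM in MEFs labelled Atxn7l3-/-, a log2 fold change of -1.17 ± 0.27 with an adjusted p of 0.0465. Its libraries did not overlap, and the call held with GC content taken out (log2 fold change -1.30, adjusted p 0.0429). Both Srebf1 and Sqle were called on leaving out replicate 3 labelled Atxn7l3-/- and on leaving out no other library (adjusted p up to 0.136 and 0.150). Over all genes the 800 higher and 701 lower calls also fell on leaving out any library but replicate 3 labelled Atxn7l3-/-, to as few as 120 and 77 without WT replicate 3 and at most 471 and 395 without WT replicate 2, and were 989 and 1049 without replicate 3 labelled Atxn7l3-/-.

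Stard4 (ENSMUSG00000024378) stood at 60.4, 42.1 and 38.6 CPM in WT MEFs and at 135, 150 and 100 CPM in MEFs labelled Atxn7l3-/-, a log2 fold change of 1.42 ± 0.26 with an adjusted p of 0.0273. Every library labelled Atxn7l3-/- lay above every WT library. It was called under all 7 other settings (log2 fold change 1.20 to 1.46), and was lost on leaving out WT replicate 2 or 3 or replicate 1 or 2 labelled Atxn7l3-/- (adjusted p 0.0545 to 0.0898). Abca1 and Abcg1, exporters of sterol to lipoproteins, overlapped between genotypes, Abca1 from 212, 22.2 and 54.5 CPM to 184, 171 and 94.0 CPM and Abcg1, with the smallest log2 fold change of the group (-0.15 ± 0.65), from 4.54, 1.56 and 2.80 CPM to 4.93, 2.02 and 1.31 CPM.

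Apart from Sqle, no sterol enzyme was called in MEFs. Of the 18, 12 had a negative log2 fold change, with a median of -0.20 beside -0.06 over all genes tested. Tm7sf2, a sterol reductase, had the lowest (-1.22 ± 0.51, adjusted p 0.154), from 9.59, 20.4 and 9.01 CPM in WT to 5.67, 3.12 and 8.07 CPM in those labelled Atxn7l3-/-, and its libraries did not overlap. Sc5d, a sterol desaturase, had the highest (0.73 ± 0.24, adjusted p 0.0958), from 74.4, 63.3 and 71.0 CPM in WT to 88.2, 116 and 145 CPM in those labelled Atxn7l3-/-, also without overlap. Its log2 fold change was 0.41 with GC content taken out.

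Insig2, the second retention factor, was the regulator with the highest log2 fold change in MEFs (0.91 ± 0.27, adjusted p 0.0757), from 64.8, 42.3 and 57.2 CPM in WT to 112, 126 and 74.8 CPM in those labelled Atxn7l3-/-, with no overlap. Fasn had the lowest of the fatty acid enzymes (-1.01 ± 0.53, adjusted p 0.226, and -1.17 with an adjusted p of 0.0444 under the replicate block), from 231, 226 and 426 CPM in WT to 90.1, 85.2 and 262 CPM in those labelled Atxn7l3-/-. The Fasn libraries overlapped, since replicate 3 labelled Atxn7l3-/- lay above WT replicates 1 and 2, and with GC content taken out its log2 fold change was -0.33. Scd1 had the highest (0.60 ± 0.29, adjusted p 0.203), from 83.9, 135 and 98.8 CPM in WT to 112, 197 and 176 CPM in those labelled Atxn7l3-/-. Elovl6, lower in Atxn7l3-/- mESCs, had a log2 fold change of 0.37 ± 0.38 in MEFs (adjusted p 0.522). Over the 37 members, the libraries did not overlap for 3 genes higher in MEFs labelled Atxn7l3-/- (20.0% of all genes) and for 4 lower (19.8%).

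Markers of some other cells moved with the labelled genotype in the MEFs. Epithelial and mesothelial markers summed to 13.8 to 33.9 CPM in WT and to 2244 to 3242 CPM in those labelled Atxn7l3-/-. Of 7 tested, 4 were called higher, beside 5.01% of all genes. Most of the rise lay in the mesothelial Upk3b (3.75 to 16.3 CPM against 1570 to 2000 CPM), Msln (1.68 to 5.85 against 426 to 1040 CPM) and Wt1. Of the epithelial markers, Krt18 rose less (0.174 to 0.613 against 4.74 to 27.4 CPM). Epcam stayed at or under 0.153 CPM, and Krt8, Krt19 and Cdh1 overlapped. Schwann cell and oligodendrocyte markers summed to 18.5 to 101 CPM in WT and 141 to 242 CPM in those labelled Atxn7l3-/-. Of 5 tested, 3 were called lower and 1 higher, beside 4.39% and 5.01% of all genes. Hepatoblast markers summed to 343 CPM in WT replicate 2, mostly Alb at 288 CPM, to 2.57 and 2.46 CPM in the other WT libraries and to 0.889 to 8.26 CPM in the libraries labelled Atxn7l3-/-. Macrophage markers summed to 200 to 432 CPM in WT and 103 to 679 CPM in those labelled Atxn7l3-/-, and adipocyte markers to 10.2 to 34.9 and 5.90 to 19.7 CPM. The sums of these 3 lists overlapped between the labelled genotypes. Of the 7 adipocyte markers, Cebpa (4.79 to 26.6 CPM), Pparg (0.479 to 8.32 CPM) and Fabp4 (0.413 to 2.76 CPM) were present in every MEF library, while Adipoq, Plin1, Lep and Cidec were at or under 0.109 CPM. The part of these cells in the MEF results was not tested.

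The knockout effect in MEFs minus that in mESCs, tested as the interaction in 1 fit of the 11 libraries, differed for 2 members. Srebf1 was called lower (-1.35 ± 0.37, adjusted p 0.0414), where 5.27% of 19326 genes were, and Stard4 higher (1.64 ± 0.47, adjusted p 0.0463), where 6.14% were. Both calls were lost with the replicate block (adjusted p 0.0807 and 0.0618) and with GC content taken out (adjusted p 0.399 and 0.0551). Each rests on the libraries already described, so it adds no independent evidence. Of the 18 sterol enzymes 15 lay below 0, with a median of -0.86 beside -0.09 over all genes, led by Tm7sf2 (-2.16 ± 0.74, adjusted p 0.0791) and Dhcr7 (-2.08 ± 0.69, adjusted p 0.0720), and none was called. Under the 7 other settings of the fit Tm7sf2 lay between -2.247 and -1.095 and was called in 1. Dhcr7 lay between -2.181 and -1.74 and was called in 2.

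Between libraries of 1 genotype the sterol enzymes often moved together. All 18 were higher in WT mESC replicate 2 than in replicate 1, by a median log2 difference of 0.70, where the median over 17094 autosomal genes was -0.01. Among Atxn7l3-/- mESCs, replicate 2 was the lowest: 17 of 18 were higher in replicate 1 than in replicate 2, by a median of 0.57, and 16 of 18 were higher in replicate 3 than in replicate 2, by a median of 0.77. Genotype did not differ within these pairs. Among MEFs labelled Atxn7l3-/- all 18 were higher in replicate 3 than in replicate 1, by a median of 0.73, and 17 of 18 were higher in replicate 3 than in replicate 2, by a median of 0.74. Among WT MEFs 13 of 18 were higher in replicate 2 than in replicate 1 and than in replicate 3, by medians of 0.69 and 0.54. The remaining 3 pairs divided more evenly: 9 of 18 were higher in Atxn7l3-/- mESC replicate 1 than in replicate 3, 8 of 18 in WT MEF replicate 1 than in replicate 3, and 10 of 18 in MEF replicate 1 labelled Atxn7l3-/- than in replicate 2. These are descriptions, since the enzymes of a library are not independent.

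Their summed level shows the same spread. It was 691 and 1213 CPM in WT mESCs and 1358, 917 and 1532 CPM in Atxn7l3-/- mESCs, and 1099, 1333 and 1152 CPM in WT MEFs and 878, 875 and 1385 CPM in MEFs labelled Atxn7l3-/-, with overlap in both cell types. The median SD of a sterol enzyme among the replicates of a group was 0.50 (log2) in WT mESCs, where it was 0.21 over all genes, and 0.51 against 0.37 in Atxn7l3-/- mESCs. In MEFs it was 0.46 against 0.44 in WT and 0.44 against 0.34 in Atxn7l3-/-. The 11 fatty acid enzymes summed to 2415 and 3722 CPM in WT and 2579, 2181 and 1980 CPM in Atxn7l3-/- mESCs, and to 1951, 2183 and 2185 CPM in WT and 1557, 1382 and 2382 CPM in MEFs labelled Atxn7l3-/-. These sums overlapped too.

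**Figure D3:**
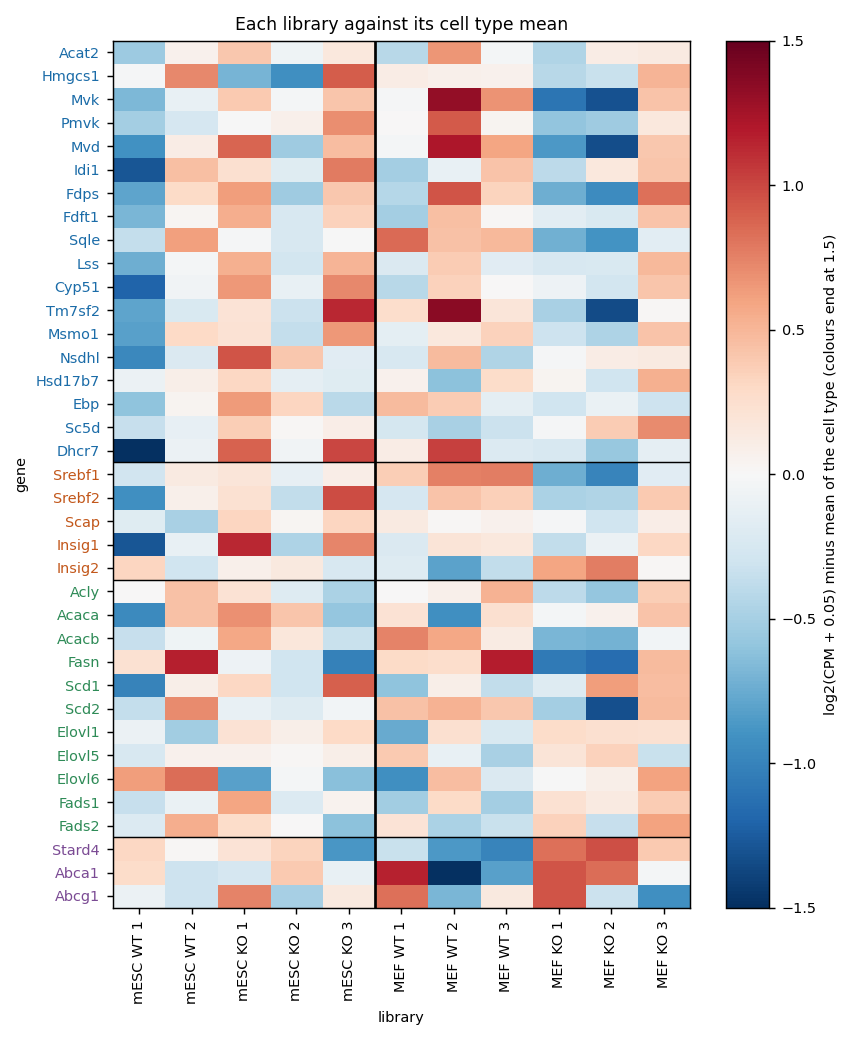
Log2 level of each member (rows, names coloured by role) in each library (columns) minus its mean over the libraries of the cell type. Most sterol enzymes are low in WT mESC replicate 1 and higher in MEF replicate 3 labelled Atxn7l3-/- than in replicates 1 and 2, while Stard4 and Insig2 are highest in MEF replicates 1 and 2 labelled Atxn7l3-/-.

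**Figure D4:**
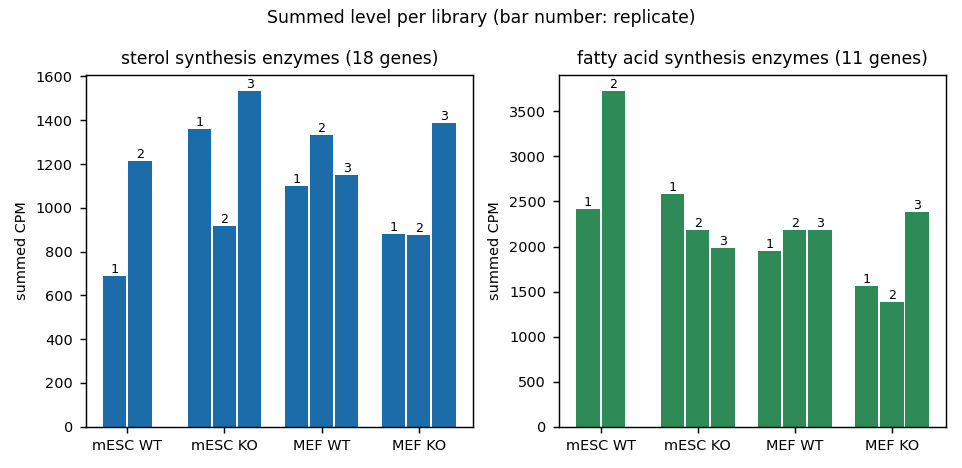
Summed CPM of the 18 sterol enzymes (left) and the 11 fatty acid enzymes (right) in every library, 1 bar each, numbered by replicate. WT mESC replicate 1 has the lowest sterol sum, 691 CPM, and WT mESC replicate 2 the highest fatty acid sum, 3722 CPM.

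Other genes of the pathways, from lists chosen with earlier results of these data known, are given here beside the members. Of 22 tested genes of fatty acid and glycerolipid synthesis, 4 were higher in Atxn7l3-/- mESCs and none was lower, beside 3.08% and 3.88% of all genes. Thrsp, a nuclear regulator of lipogenesis, stood at 0.590 and 0.555 CPM in WT and 5.57, 3.08 and 3.91 CPM in Atxn7l3-/- (log2 fold change 2.92 ± 0.52, adjusted p 0.0287). Mlxipl, the carbohydrate-response factor, stood at 14.9 and 9.51 CPM against 45.0, 31.2 and 35.6 CPM (1.66 ± 0.31, adjusted p 0.0311). Acss2, which makes acetyl-CoA from acetate, stood at 11.2 and 12.2 CPM against 29.1, 39.9 and 37.7 CPM (1.65 ± 0.25, adjusted p 0.0224). For all 3 genes the groups did not overlap, and each call was made in 2 of the 5 fits that left out 1 library.

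In sterol synthesis and uptake, 1 of 12 tested genes was higher in Atxn7l3-/- mESCs, where 3.08% of all genes were. It was Scarb1, the HDL receptor, at 63.6 and 68.6 CPM against 142, 117 and 165 CPM (1.15 ± 0.22, adjusted p 0.0317). In MEFs 1 of 12 was higher, where 5.01% of all genes were. It was Soat1, which esterifies cholesterol, at 94.1, 71.4 and 139 CPM against 337, 308 and 185 CPM (1.42 ± 0.33, adjusted p 0.0464). Of the 9 genes of SREBP processing, sterol sensing and LXR, 0 were called in mESCs. At an unadjusted p under 0.05, 2 were higher and 2 lower, beside 2666 and 2643 of all 17800 genes tested. In MEFs 1 of the 9 was lower and 1 higher, beside 4.39% and 5.01% of all genes. The lower was Nr1h3, the sterol-sensing receptor LXR alpha (-2.45 ± 0.58, adjusted p 0.0477), from 2.32, 3.34 and 1.14 CPM to 0.397, 0.281 and 0.568 CPM. Erlin1 was the higher (1.19 ± 0.29, adjusted p 0.0496). On leaving out 1 of the 6 MEF libraries at a time, Nr1h3 was called in 0 fits (adjusted p 0.0574 to 0.163), and Soat1 and Erlin1 in 1 fit each. Scarb1 was called in 2 of the 5 such fits of mESCs. Of the 5 other LXR targets tested in each cell type, edgeR called 0. At an unadjusted p under 0.05, 1 was higher and 1 lower in mESCs, beside the same 2666 and 2643 of all genes. In MEFs 2 were lower, beside 2839 of all 15958 genes tested.

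By the deposited terms for sterol or fatty acid biosynthesis, 108 further genes could be listed. In mESCs 3 of 86 tested were higher and 1 lower, beside 3.08% and 3.88% of all genes, and in MEFs 9 of 82 were higher and 4 lower, beside 5.01% and 4.39%. Among those called, the largest in mESCs were Fgf1, a growth factor (1.24 and 1.09 CPM in WT and at most 0.103 CPM in Atxn7l3-/-), Mlxipl and Fads6. Among the largest called in MEFs were Fads6, a desaturase-like protein (0.590, 0.624 and 0.414 CPM in WT and 181, 229 and 91.2 CPM in those labelled Atxn7l3-/-), and Lpl, lipoprotein lipase (27.5, 103 and 17.5 CPM against 946, 1948 and 287 CPM).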

How the data were processed

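Poly(A) RNA of 5 mESC and 6 MEF samples was sequenced, giving a deposited table of 31518 genes from mESCs and another of 29450 from MEFs. Per the labels, reads were trimmed with cutadapt 1.10 and processed with STAR 2.5.3a, HTSeq 0.6.1p1 and DESeq2 1.16.1 on mm10, and the annotation and strand setting were not given in the sources used here. The authors deposited raw counts, used here for every test, and a normalized signal (counts over a DESeq2 size factor, per kb of median transcript length), used only for the study's threshold of more than 10. Columns with the authors' own fold changes and p-values were not used, nor was 1 unnamed column. The study excluded 1 further WT mESC dataset, which was not analysed here.

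Counts were filtered with filterByExpr, normalized by TMM and tested with edgeR 4.0.16 in R 4.3.3 (quasi-likelihood test, Benjamini-Hochberg adjustment over all genes tested), each cell type in its own fit and the interaction and the WT MEF against WT mESC contrast in 1 fit of all 11 libraries over genes in both tables. A gene was called at an adjusted p of 0.05 or less. The p-values measure the spread between cultures of different embryos. The totals, 34515342 to 49602605 counts, put 3 counts at 0.0605 to 0.0869 CPM, which covers counting error only. Log2 levels between libraries used CPM plus 0.05.

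Replicate numbers come from the labels. Deviations of same-numbered WT and Atxn7l3-/- libraries from their group means correlated at 0.473, 0.161 and 0.240 in MEFs, so the numbers may pair the libraries there. In mESCs they correlated at 0.008 and -0.172, and the numbers were not taken as a pairing. The main fits held genotype without the replicate number in both cell types. MEF calls with the number as a block are therefore given beside the main ones. Alternatives were RLE normalization, no filter, at least 10 counts in every library, DESeq2 1.42.0, the replicate block, removal of each library's lowess trend (span 0.3) over GC content with and without the block, the study's thresholds (2-fold and more than 10 normalized reads per kb), and leaving out each library. The fits were tested on simulated data. Leaving out libraries for the WT contrast was added after seeing the data.

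The members and all gene lists were chosen with earlier results of these data known. Values per library are given for members called, and for the highest and lowest log2 fold change of each role and cell type, and other genes are named where called, at most 3 a list and cell type, apart from 1 gene that is not reported here. Promoters were taken from RefSeq on GRCm38.p6, and transcript lengths and shared windows from GENCODE M21. Tables were made with pandas 2.3.3 and figures with matplotlib 3.10.9.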

Additional observations from a re-analysis of the deposited data

Results flagged for a closer look

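For 2 members the knockout effect differed between the cell types by edgeR's interaction test, given here as the effect in MEFs minus that in mESCs on the log2 scale, with the MEF genotype as labelled. It was -1.35 for Srebf1 (adjusted p 0.0414), from a log2 fold change of -1.24 in MEFs and 0.17 in mESCs, and 1.64 for Stard4 (adjusted p 0.0463), from 1.42 in MEFs and -0.15 in mESCs. Among the other genes of lipid synthesis named in the report, it was 7.25 for Fads6 (adjusted p 6.76e-05) and 4.58 for Lpl (adjusted p 0.0243). For Thrsp it was -8.24 (adjusted p 0.0341), but its MEF libraries labelled Atxn7l3-/- were at or under 0.0299 CPM, below the level of 3 counts, so that this value depends on the prior count. Elovl2, an elongase of long polyunsaturated chains, was at -3.31 (adjusted p 0.0344), and it was called in neither cell type alone.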

How the results depend on the processing

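The calls of members were few and moved with the fit. In mESCs 0 members were higher and 1 lower, beside 4 and 2 without the filter, 1 and 2 by DESeq2, and 1 (Nsdhl) and 2 (Elovl6 and Hmgcs1) with the replicate block, in libraries whose numbers did not pair. In MEFs 1 member was higher and 2 were lower, beside 3 higher by DESeq2, 1 lower with GC content taken out, and 2 higher and 1 lower with GC content taken out under the replicate block. For the difference between cell types, 1 higher and 1 lower became 0 and 0 without the filter, with the replicate block, with GC content taken out, and with both, 2 and 5 by DESeq2, and 3 lower with at least 10 counts in every library. RLE normalization moved no such count, and nor did the study's thresholds, which were applied to the knockout effect in mESCs and in MEFs. Leaving out 1 library gave 0 to 1 higher and 0 to 1 lower members in mESCs, 0 to 2 and 0 to 4 in MEFs, 0 to 2 and 0 to 6 for the difference, and 3 to 6 and 3 to 4 for WT MEFs against WT mESCs. The 4 and the 6 came without MEF replicate 3 labelled Atxn7l3-/-. No log2 fold change of a called member reversed. Over all genes, the calls in mESCs (548 higher, 690 lower) were 1752 and 1684 by DESeq2, 1390 and 1605 without the filter and 449 lower with at least 10 counts in every library, those in MEFs (800 and 701) were 1723 and 2213 by DESeq2, 1355 lower with the block and 514 and 332 with at least 10 counts, and those of the difference (1187 and 1018) were 2074 and 2216 by DESeq2, 615 higher with the block, 678 lower with GC content taken out, and 581 and 543 with both. For WT MEFs against WT mESCs, 5180 higher and 5243 lower became 3218 and 3237 with at least 10 counts in every library. The causes were not tested, apart from fewer samples where a library was left out.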
